A study of Homo sapiens with 32 samples.

Results

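Among 92108 H3K27ac regions of a human neuroblastoma line, 1917 (2.08%) held peaks with retinoic acid (RA) alone. A region was selected when it shared at least 1 base with a broad peak in at least 3 of 4 RA libraries and in at most 1 of 4 libraries of each of DMSO, palbociclib (PB) and PB+RA. The peak lists of all 16 ChIP libraries therefore chose the members, and every H3K27ac level at them in these 4 groups is a description without a test.

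The libraries came from chromatin immunoprecipitation and sequencing (ChIP-seq) of H3K27ac in SK-N-BE(2)C, an established MYCN-amplified neuroblastoma line of the adrenergic type. Treatment lasted 5 days with DMSO (the vehicle), with PB at 1 µM, with RA, or with PB at 1 µM and RA together. Each group had 4 ChIP libraries and 4 inputs. The labels name the 4 samples of a group as replicates, and the study's methods call them biological replicates, which it defines as separate passages.

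H3K27 acetylation marks active enhancers and promoters. RA binds heterodimers of the receptors RAR and RXR, which sit on direct repeats of short hexamers and recruit acetyltransferases when the ligand is present. PB inhibits the kinases CDK4 and CDK6, and so blocks entry into S phase. In neuroblastoma, RA is known as an inducer of differentiation.

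The line's identity was checked at start sites first. Of 7 adrenergic marker genes, 6 (among them HAND2, GATA3, ISL1, DBH and TH) had a peak over a start site in at least 3 libraries of every group, and PHOX2A did not. Mesenchymal markers had one as often, at 5 of 6 (SNAI2, TWIST1, FOSL2, VIM and CD44), and Schwann and neural crest markers at 2 of 5, so that start-site peaks did not set the adrenergic state apart from the mesenchymal. None of 9 endothelial markers and 2 of 13 immune markers (CD14 and CSF1R) did. Libraries ranged from 64516 peaks (DMSO replicate 3) to 104392 (RA replicate 2). Read depth per library is unknown, so a peak missing from a library need not mean that the mark is absent there.

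Sequences of a few members are printed because direct repeats of RAR/RXR hexamers are the letters through which RA is known to act. The hexamers searched were AGGTCA and its variants, of which AGTTCA is the first, then GGGTCA, and the last is GGTTCA, in direct repeat with a spacer of 1, 2 or 5 bases (DR1, DR2 and DR5), on both strands and in the 1000 bases around a region's centre. All stretches are the plus strand of hg19, read from GRCh37, 180 bases long, with the hexamers in capitals (reverse complements where the repeat is on the minus strand). The first is the only member with such a repeat among the 12 with the widest margin of RA over the other groups and the 8 promoter-proximal members with the largest RA minus DMSO. The second, chosen after its values were seen, is the DR5 member with the largest RA minus DMSO.
Intergenic, 41383 bases from a ROR2 start site, DR2, chr9:94754989-94755168: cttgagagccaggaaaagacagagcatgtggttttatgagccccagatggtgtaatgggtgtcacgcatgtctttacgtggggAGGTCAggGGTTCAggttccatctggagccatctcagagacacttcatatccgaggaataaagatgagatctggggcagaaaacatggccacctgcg
Intergenic, nearest coding gene CBLB at 411211 bases, DR5, chr3:106000211-106000390: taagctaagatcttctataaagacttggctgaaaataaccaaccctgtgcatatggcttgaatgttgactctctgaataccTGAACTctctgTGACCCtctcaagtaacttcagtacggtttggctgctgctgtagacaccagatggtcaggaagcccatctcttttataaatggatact

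A direct repeat of any of the 3 spacings was found at 72 members (3.76%, 95% Wilson interval 2.99 to 4.70), beside 3.05% of all regions. DR2 was the most frequent, at 61 members (3.18%) against 2.30% of all regions. Of these 61, 45 (73.8%) held AGGTCA and AGTTCA on either side of GG. The share was 71.9% over all regions with a DR2. These letters are common in Alu repeats. DR2 of other letters stood at 16 members (0.835%) and at 0.648% of all regions. DR5 was at 9 members (0.469%) and at 0.364% of all regions. The CBLB member printed above had 2.204 in DMSO, 3.27 in PB, 5.66 in RA and 4.85 in PB+RA in mean log2 concentration, the measure explained below. DR5 was at 41 (1.43%) of the 2866 reference-genome regions that had peaks in at least 3 libraries of both RA and PB+RA and at most 1 of DMSO and of PB, called RA-kept regions below. No motif share was tested, and a match is not a bound site.

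Other motifs stood at members about as often as in the whole table or, for AGATAA and GGGCGG, less often. TGANTCA, the letters of AP-1 factors, stood in 32.5% of members, 30.9% of all regions and 46.7% of RA-kept regions. AGATAA, a motif of zinc-finger factors such as GATA3, was in 42.4%, 46.9% and 63.2% in the same order. The homeobox letters TAATTA were in 27.02%, 27.4% and 42.9%. The GC box GGGCGG was in 22.3%, 28.3% and 9.39%. Shares of such letters move with base composition: in the lowest of 3 equal bands of GC content, TAATTA was in 44.1% of members, 48.3% of RA-kept regions and 47.6% of all regions. In that band AP-1 letters were in 38.7% of members, 46.1% of RA-kept regions and 38.8% of all regions. AGATAA was in 60.1% of members and 69.9% of all regions there, but in 25.7% and 22.8% in the highest band. GGGCGG was in 5.04% of members and 6.01% of all regions in the lowest band. It was in 42.0% and 54.9% in the highest.

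The members were peaks of modest strength. With RA, replicates 1 to 4 had a peak at 1565, 1707, 1492 and 1485 members. In DMSO the numbers were 209, 262, 38 and 300, in PB 61, 99, 177 and 130, and in PB+RA 214, 86, 311 and 239. The RA libraries held the most by selection, since the rule asked for peaks there. Over all regions a library had a peak at 50.2% to 68.8%. In DMSO, replicate 3, which had the fewest peaks of all, held 38 of them.

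**Figure D1:**
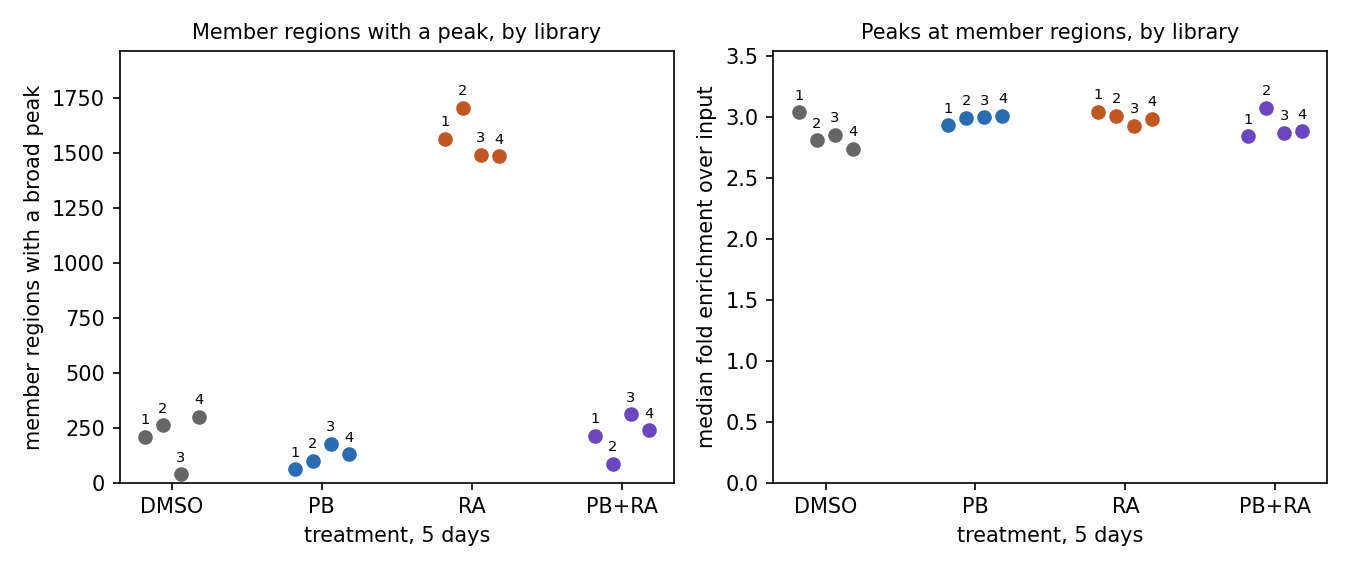
Members with a broad peak (left) and the median fold enrichment over input of the peaks at members (right) in each of the 16 ChIP libraries, by treatment, with the replicate number above each point. The 4 RA libraries hold 1485 to 1707 of the 1917 members by selection, while the peaks that are present have similar medians in every group, from 2.74 to 3.08.

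Peaks at members had a median fold enrichment over input, as the peak caller gave it, of 3.04, 3.01, 2.93 and 2.99 in RA replicates 1 to 4. Over all peaks of the same libraries the medians were 3.33, 3.23, 3.16 and 3.31, so the members' median stood at the 29.3rd to 35.9th percentile of a library's peaks. RA peaks covered a median of 53.0% to 59.8% of a member. Members were narrow, with a median width of 920 bases against 1727 bases for all regions and 1957 for RA-kept regions.

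Most members sat close to the selection limit. A peak was present in 3 RA libraries at 1419 members (74.0%) and in all 4 at 498 (26.0%). No peak was found in any of the 12 other libraries at 518 members, and 120 (6.26%) combined 4 RA peaks with none elsewhere. A peak in 1 DMSO library was present at 809, in 1 PB library at 467 and in 1 PB+RA library at 850. Just inside the limit, members with 3 RA libraries had a median RA minus DMSO of 0.77 in log2 concentration, and the 5396 regions just outside, with 2 RA libraries, had 0.59. On the PB+RA side, the median RA minus PB+RA was 0.73 at the 850 members with 1 PB+RA library. It was 0.43 at the 776 regions with 2 such libraries, 0.17 at 820 with 3 and -0.20 at 2047 with all 4.

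The level of the mark was read as the mean log2 concentration, the authors' group mean of normalised reads in a region, which has no error attached. The median over members was 3.69 in DMSO, 3.47 in PB, 4.58 in RA and 3.71 in PB+RA, or 12.9, 11.1, 23.9 and 13.1 normalised reads. Over all regions the medians were 5.08, 5.09, 5.23 and 5.28. Members therefore lay below the typical region in every group, RA included, in reads per whole region. Members were also narrower (median 920 against 1727 bases), and levels were not divided by width. The RA level was above all 3 other groups at 1836 members (95.8%) and by at least 1 on the log2 scale at 387 (20.2%). At 81 members it was not above all of them.

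**Figure D2:**
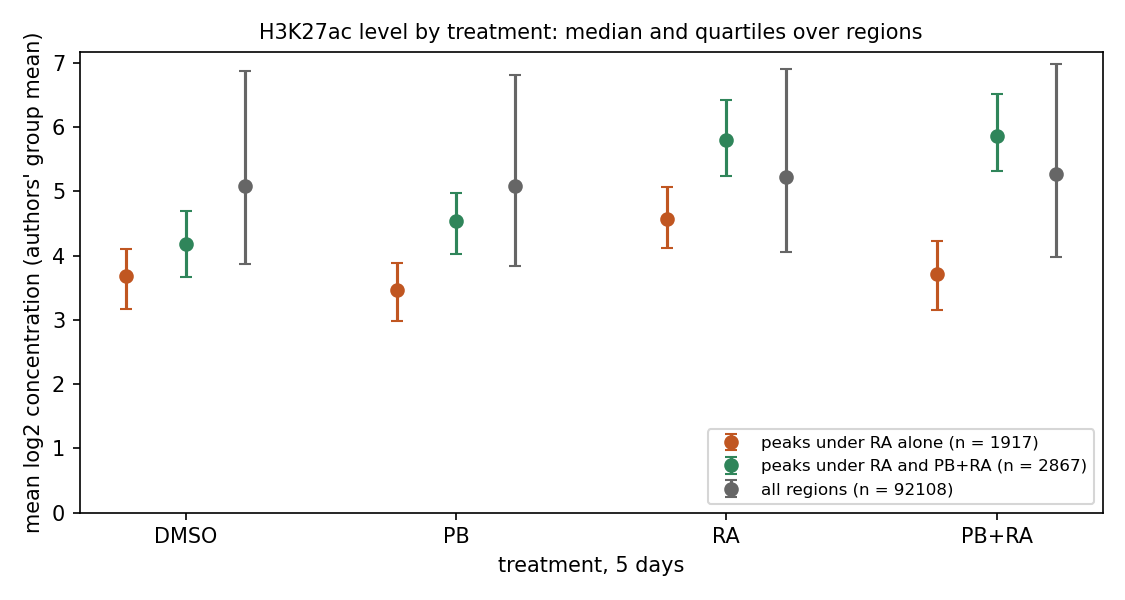
Mean log2 concentration of H3K27ac by treatment (median as a point, quartiles as bars) over the 1917 members, the 2867 RA-kept regions and all 92108 regions. Members stand at 4.58 with RA and between 3.47 and 3.71 otherwise, while RA-kept regions stand at 5.80 with RA and 5.86 with PB+RA. Levels are not divided by width, and RA-kept regions are wider than members (median 1957 against 920 bases).

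RA minus DMSO had a median of 0.87 over members, with quartiles of 0.48 and 1.43, and 839 members (43.8%) were at least 1 higher with RA, beside 14.6% of all regions. RA minus PB had a median of 1.12, and 1142 members (59.6%) were at least 1 higher, beside 14.5% of all regions. RA minus PB+RA had a median of 0.93, and 837 (43.7%) were at least 1 higher, beside 8.25% of all regions. The rule used these contrasts, so nothing is read from the excess. At RA-kept regions the same medians were 1.65 for RA minus DMSO and -0.07 for RA minus PB+RA.

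With both drugs the members' level spread around that of DMSO. The median PB+RA minus DMSO was -0.0004, with quartiles of -0.47 and 0.54. At 236 members (12.3%) PB+RA was at least 1 above DMSO, beside 19.8% of all regions, and at 149 (7.77%) at least 1 below, beside 16.1% of all regions. The other 1532 (79.9%) lay between. The rule allowed peaks in at most 1 library of each of DMSO and PB+RA. Nothing is therefore read from this closeness or from these shares. Of the 839 members with RA at least 1 above DMSO, 236 were also at least 1 above DMSO with PB+RA, 600 lay between and 3 were at least 1 below. PB minus DMSO had a median of -0.20.

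The 236 members above DMSO with PB+RA were GC-poor and the 149 below it GC-rich, and levels over all regions moved likewise (below). The former had a median GC content of 40.0%, a median RA minus DMSO of 2.197 and a median RA minus PB+RA of 0.71, and 159 of them had a peak in 1 PB+RA library. The latter had a median GC content of 56.4%, a median RA minus DMSO of 0.18 and a median RA minus PB+RA of 1.43, and 112 of them had a peak in 1 DMSO library. Within 3 kb of a start site lay 7 (2.97%) of the former and 23 (15.4%) of the latter. The split was by PB+RA minus DMSO, which shares a group with both RA minus DMSO and RA minus PB+RA. The contrast between the sets in these differences and in peaks is therefore in part set by the split.

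**Figure D3:**
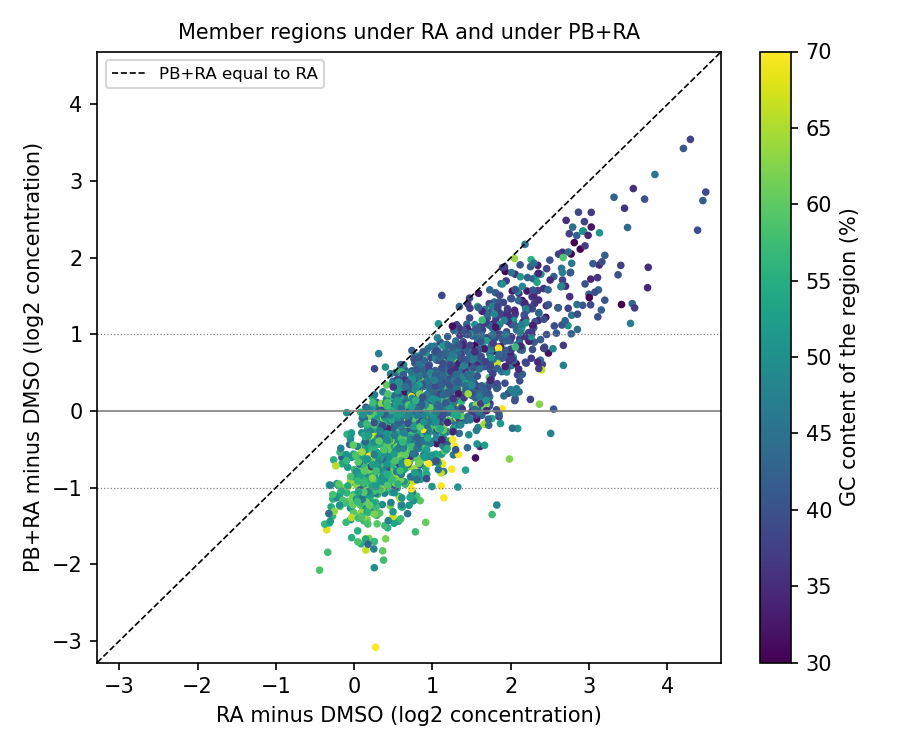
Each point is 1 of the 1917 members, placed by RA minus DMSO (x axis) and PB+RA minus DMSO (y axis) in log2 concentration and coloured by GC content in percent, with dotted lines at 1 and -1 on the y axis. Nearly all points lie under the dashed line of equal levels by selection, 236 lie at or above the upper dotted line, and GC-poor members lie toward the upper right.

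Base composition moved with these levels. The median GC content was 47.9% at members, 47.1% over all regions, 40.2% at RA-kept regions, 41.7% at the 944 regions with peaks in PB alone and 39.6% at the 3296 with peaks in PB+RA alone. When all regions were put into 10 classes of GC content, members made up 17.8% of members and RA-kept regions together in the lowest class and 93.6% in the highest. Over all regions, the median RA minus PB+RA went from -0.40 in the lowest class to 0.72 in the highest, and the median RA minus DMSO from 0.59 to -0.17. The members' own RA minus PB+RA, a difference that the rule selected for, lay between 0.84 and 1.14 in every class. Their PB+RA minus DMSO went from 0.81 in the lowest class to -0.59 in the highest. Over all regions it went from 0.99 to -0.87, so this slope was not particular to members. Regions with a peak had a median GC content of 45.2% to 46.3% in PB+RA libraries, 47.8% to 48.6% in RA libraries and 48.4% to 49.5% in DMSO libraries. The part of base composition in the choice of members was not tested.

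**Figure D4:**
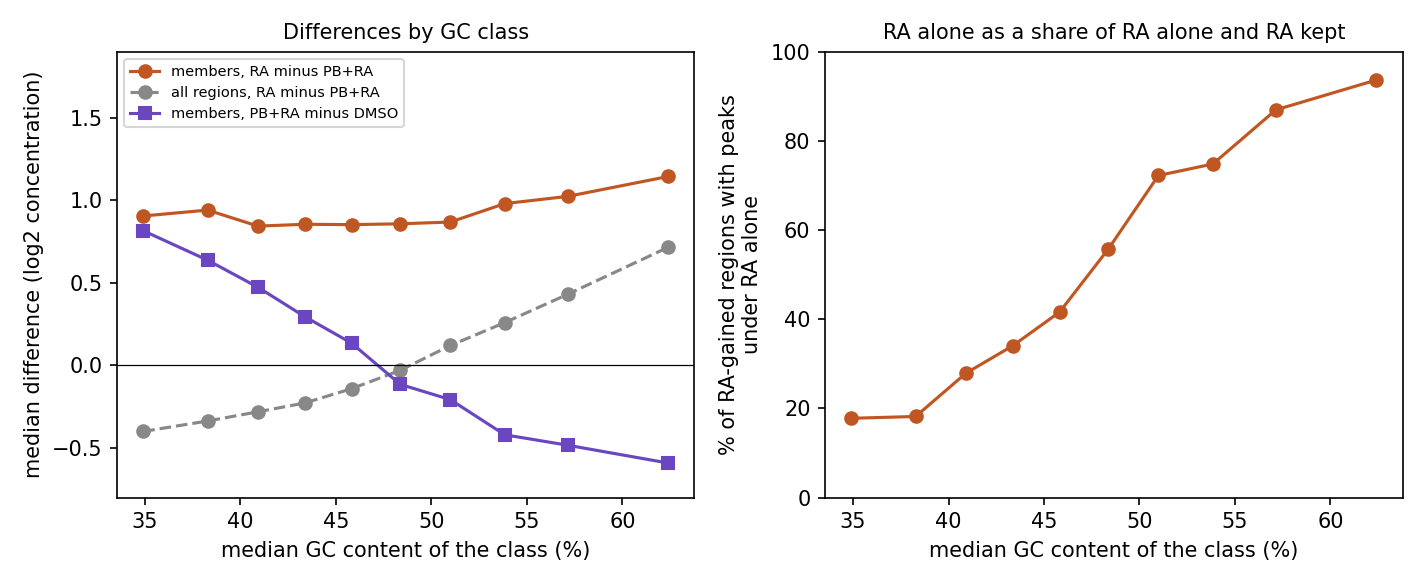
Left, the median difference in log2 concentration in 10 classes of GC content, for members and for all regions. Right, members as a percentage of members and RA-kept regions together. The members' RA minus PB+RA, a difference that the rule selected for, stays between 0.84 and 1.14, while their share goes from 17.8% to 93.6%.

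Members were mostly distal. Within 3 kb of a protein-coding start site lay 220 (11.5%), beside 21.6% of all regions and 6.73% of RA-kept regions, and 72 members covered a start site. The centre lay in an intron of a coding gene at 53.7%, in an exon at 6.26%, in a non-coding gene at 12.6% and between genes at 27.5%. Over all regions these shares were close, at 55.5%, 8.62%, 11.4% and 24.5%. The nearest start site was more than 100 kb away for 441, beside 21.5% of all regions. A region with a peak in at least 3 DMSO libraries stood within 10 kb of 1178 members (61.5%), and the median distance to the nearest was 6708 bases. Another member stood within 10 kb of 213 (11.1%). These distances were not computed for all regions, so neither clustering nor closeness to DMSO peaks is read from them. Members came from every chromosome but Y, at 1.28% of regions on X to 2.66% on chromosome 20.

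RA receptor and metabolism genes were among the genes near members. By the nearest start site within 100 kb, 1476 members were assigned to 1180 of 15005 genes (7.86%), although nearness does not show which gene a region acts on. Of 19 measured RA response genes, 6 had a member (RARB, RXRA, DHRS3, CRABP1, ALDH1A3 and TGM2), and 8 of the 143 regions of these 19 genes were members (5.59%, beside 2.04% for all genes). Their median RA minus DMSO was 1.14 and their median RA minus PB+RA 0.87, against 0.79 and 0.91 for all assigned members.

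RARB, the retinoic acid receptor beta gene and a classical target of RA, held 8 members with their centre in its introns, of 33 regions in the gene. Assignment by distance gave RARB only 2 of the 8, since its other members lie more than 100 kb from an annotated coding start. The 8 were gathered after their values were seen. At chr3:25048974-25051069 the level was 2.16 in DMSO, 3.002 in PB, 6.55 in RA and 4.52 in PB+RA. RA replicates 1 to 4 had peaks of 4.29-, 3.04-, 3.11- and 3.02-fold enrichment there, and none of the other 12 libraries had a peak. The level with PB+RA was 2.36 above DMSO. At chr3:25051693-25053435 the levels were 2.16, 2.79, 5.74 and 3.51 in the same order, with RA peaks of 2.84-, 3.47-, 2.67- and 2.79-fold and again no other peak. At chr3:25110223-25112362 the levels were 4.47, 3.52, 6.19 and 4.53, so that PB+RA stood 0.06 above DMSO there.

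The 8 members in RARB had a median RA minus DMSO of 2.30 and a median PB+RA minus DMSO of 1.23. The gene also held 9 RA-kept regions, with medians of 2.48 and 1.70. None of its 33 regions had a direct repeat in the 1000 bases around its centre. This count leaves out the parts of wider regions beyond that window, so it does not show that the gene lacks such a repeat. The 180 bases at the centre of the second member above carry a GATA hexamer on the minus strand, in capitals here.
Intron of RARB, chr3:25052475-25052654: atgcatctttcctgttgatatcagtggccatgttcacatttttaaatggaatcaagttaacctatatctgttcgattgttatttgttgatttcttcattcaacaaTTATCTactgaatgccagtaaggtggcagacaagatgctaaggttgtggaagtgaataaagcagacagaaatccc

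DHRS3, which reduces retinaldehyde and is itself induced by RA, had a promoter-proximal member in its intron at chr1:12673112-12674236. The level there was 1.56 in DMSO, 0.96 in PB, 4.69 in RA and 3.88 in PB+RA. Peaks were called in RA replicates 1, 2 and 4 and in PB+RA replicate 1. A second DHRS3 member, 24887 bases from a start site, had 2.93, 2.06, 4.63 and 3.26. The single members of ALDH1A3, which makes RA, and TGM2, a transglutaminase, had RA minus DMSO of 0.88 and 0.91. Those of CRABP1, a cytosolic RA carrier, and RXRA had 0.15 and -0.19, and their PB+RA minus DMSO was -1.03 and -0.95.

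Of 18 measured genes of the adrenergic core regulatory circuitry (CRC), the transcription factors that hold the noradrenergic identity, 4 had a member, with 6 members in all of 236 regions (2.54%). ISL1, a LIM homeobox factor, had a member 48212 bases away with 4.57 in DMSO, 4.69 in PB, 5.81 in RA and 5.09 in PB+RA. INSM2 had RA minus DMSO of 1.43. KLF7 had 2 members, at 0.64 and 0.74. In the retino-sympathetic CRC, RARB had members and the other 3 genes (of 4) had none.

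Wnt and TGF-beta signalling held members at 8 of 35 measured genes (22.9%, beside 7.86% of all genes), and its 12 members were 3.38% of the genes' regions, beside 2.04% for all genes. Housekeeping genes had members at 3 of 15 and at 3.70% of regions. DKK2, a secreted modulator of Wnt signalling, had a member in its intron 5642 bases from a start site, with 2.08 in DMSO, 2.59 in PB, 4.50 in RA and 2.89 in PB+RA. Another, 2614 bases from a start site and in a non-coding gene, had 4.22, 4.40, 6.35 and 5.06. Another member, too far for assignment at 120198 bases, had 1.09, 2.44, 4.84 and 2.70. For extracellular matrix and junction genes, 5 of 32 (COL3A1, COL6A3, LAMA4, ITGA1 and TJP1) had 7 members, 2.93% of their regions. The COL3A1 member, near the gene of a fibrillar collagen, had 3.18 in DMSO, 2.97 in PB, 5.61 in RA and 4.01 in PB+RA, with a peak in all 4 RA libraries and no other.

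Members made up 1.85% of the regions of axon and neurite genes, 2.22% of ion channel genes, 1.45% of synapse genes and 1.91% of dense-core vesicle genes, beside 2.04% for all genes. Axon and neurite genes had members at 6 of 35, ion channel genes at 6 of 28, synapse genes at 4 of 33, dense-core vesicle genes at 3 of 17 and neuronal transcription factors at 1 of 32 (TCF4). The NRP1 member, in an intron of the semaphorin co-receptor, had 3.999, 4.58, 5.44 and 5.13 in DMSO, PB, RA and PB+RA. The CHRNB4 member, in an intron of a nicotinic receptor subunit, had 2.08, 2.75, 4.76 and 2.94, with 5.64-, 7.85-, 5.57- and 4.66-fold enrichment in the RA libraries and 3.60-fold in PB+RA replicate 1. The member near VIP, a neuropeptide gene, had 4.62, 4.003, 5.53 and 4.34. The SCN2A member, in a sodium channel gene, had 3.05, 3.53, 4.42 and 3.19.

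The other lists lay on both sides of the share for all genes, which was 7.86% of genes and 2.04% of regions. Neural crest and Schwann genes had members at 4 of 16 (4.76% of regions), endothelial genes at 2 of 8 (VWF and CLDN5, 5.71%) and housekeeping genes at 3 of 15 (3.70%). Mesenchymal genes had them at 4 of 27 (SNAI1, SNAI2, YAP1 and MEOX1, 2.19%), kidney and gland genes at 2 of 16 (1.71%), E2F targets and cell cycle genes at 3 of 39 (1.99%) and growth factor genes at 2 of 23 (0.897%). Sarcomere (18 measured), catecholamine (13) and immune genes (8) had none. The region share of the RA response list, 5.59%, was no higher than the 5.71% of the endothelial list. At YAP1, a co-activator of the Hippo pathway, the member covered a start site, with 4.15 in DMSO, 2.75 in PB, 5.22 in RA and 3.54 in PB+RA. The member near WT1, a zinc-finger factor of kidney development, lay in the antisense gene WT1-AS and had 3.13, 2.03, 4.90 and 1.78, with a peak in all 4 RA libraries and no other. ETS1 had 3.75, 4.22, 6.30 and 5.50, and ERBB4, a neuregulin receptor, had 2.74, 3.70, 4.98 and 3.65. A member 51471 bases from MKI67, the gene of Ki67, had 2.84, 2.98, 5.49 and 4.47. Members near YWHAZ (2.46, 2.75, 3.68 and 2.49) and CLDN5 (4.08, 3.77, 4.54 and 3.22) were the strongest of the housekeeping and endothelial lists by RA minus DMSO.

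The widest margins of RA over the highest other group were found away from promoters. At chr5:135336354-135338048, 26629 bases from TGFBI, a secreted matrix protein gene, the level was 3.85 in DMSO, 3.26 in PB, 6.36 in RA and 3.56 in PB+RA. Peaks there had 5.54-, 4.97-, 3.79- and 4.49-fold enrichment in the RA libraries and 2.76-fold in DMSO replicate 4. At chr11:95469237-95471219, in a non-coding gene 48750 bases from FAM76B, the levels were 4.40, 4.16, 6.95 and 4.43, with 4.27-fold at most and 2.79-fold at least in the RA libraries. The other 12 libraries had no peak. PB+RA minus DMSO was -0.29 near TGFBI and 0.02 near FAM76B.

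In an intron of FRMD4A, a scaffold of cell polarity, the levels were 2.88, 2.89, 6.405 and 4.02, with PB+RA between DMSO and RA. Near MAP3K8, a kinase upstream of ERK, they were 2.201, 1.70, 5.75 and 3.60. Near ROR2, a WNT5A receptor, they were 3.78, 3.64, 5.80 and 3.56, and the RA libraries had 4.30-, 3.41-, 3.06- and 3.31-fold enrichment. This is the member whose DR2 is printed first above. Near ARHGEF28 they were 2.87, 2.75, 4.96 and 2.65, in an intron of SLC26A7 2.27, 2.47, 4.94 and 2.86, and in an intron of STPG2 1.03, 0.54, 3.4002 and 1.12. In an intron of NTNG1, with VAV3 the nearest start site, they were 1.31, 1.505, 4.72 and 2.70.

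Promoter-proximal members with the largest RA minus DMSO included adhesion genes. VCAM1, an adhesion molecule, had 2.25 in DMSO, 3.02 in PB, 5.27 in RA and 3.63 in PB+RA, with a peak in all 4 RA libraries and no other. ITGA4, which encodes the integrin subunit that binds VCAM1, had a member over its start site with 2.46, 2.204, 4.86 and 2.999. RA libraries had 3.07-, 2.68-, 2.94- and 3.67-fold enrichment there and DMSO replicate 4 had 2.50-fold. PPARG, a nuclear receptor that pairs with RXR, had 2.62, 2.27, 4.81 and 3.99 over a start site. NIBAN1 had 3.01, 3.802, 5.77 and 4.81, and CDC42EP5 2.36, 2.50, 4.54 and 3.36. PB+RA lay between DMSO and RA at each of these 5 regions, as at DHRS3 and the DKK2 member in the non-coding gene.

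PB+RA minus DMSO ran from -3.08 to 3.54 over the members. The member over the start site of EPCAM, an adhesion molecule of epithelia, had 3.88 in DMSO, 2.31 in PB, 4.16 in RA and 0.80 in PB+RA. The HUNK member had 2.88, 2.56, 3.14 and 0.84, and the member in an ALPK3 exon near SLC28A1 had 4.83, 3.83, 4.39 and 2.76. At the other end, a member near HYI had 0.00 in DMSO and in PB, at the floor of the scale, 3.85 in RA and 3.09 in PB+RA. Members nearest to RPS6KA3 (0.95, 2.93, 5.25 and 4.50) and CRISPLD1 (0.34, 1.87, 4.54 and 3.76) also had a high PB+RA minus DMSO. Unlike the HYI member, both were higher in PB than in DMSO (PB minus DMSO of 1.97 and 1.53). Each had 3 RA peaks and 1 PB+RA peak, while the HYI member had 3 RA peaks and no PB+RA peak.

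Some genes gathered several members. MAPKAP1, a subunit of mTOR complex 2, had 8 of its 42 regions, TOX2, a transcription factor of the HMG-box family, 7 of 38, KAT6B, a histone acetyltransferase, 6 of 25, ASAP1 5 of 72 and ASAP2 5 of 30. HAS2 (5 of 12), PSAPL1 (5 of 17), TNS3 (5 of 29) and TPST1 (5 of 25) tied with the last of these. At KAT6B, RA minus DMSO ran from 1.23 to 1.87 and PB+RA minus DMSO from -0.16 to 0.97. At TOX2 they ran from 0.58 to 1.95 and from -0.41 to 0.71, and at MAPKAP1 from 0.33 to 1.48 and from -1.33 to 0.48. Of all 1180 genes, 980 had 1 member, 140 had 2 and 60 had at least 3. An RA-kept region was also assigned to 310 of them, 26.3% of the genes with a member and 23.3% of the 1333 genes with an RA-kept region. Of all 15005 measured genes, 7.86% had a member and 1333 had an RA-kept region. Genes with many regions have more chances of both, and the overlap was not tested.

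The choice was then repeated with 1 replicate number left out of all groups, and the regions chosen were read in the 4 libraries left out. The cutoffs were unchanged, so every remaining RA library needed a peak. Among the 1374, 1094, 1360 and 1523 regions so chosen, RA replicates 1 to 4 had a peak at 62.6%, 75.2%, 60.2% and 59.4%. DMSO had one at 24.8%, 32.7%, 8.82% and 35.6%, PB at 8.95%, 11.5%, 15.6% and 13.99%, and PB+RA at 30.1%, 16.7%, 36.9% and 31.4%. The RA library was the highest of the 4 each time. Over all regions, RA replicates 1 to 4 had a peak at 62.3%, 66.9%, 64.1% and 63.4%, DMSO at 57.98%, 62.2%, 50.2% and 62.7%, PB at 56.8%, 59.3%, 59.7% and 53.5%, and PB+RA at 63.8%, 57.6%, 68.8% and 67.4%. RA stood above its share over all regions with replicates 1 and 2 and below it with 3 and 4, and the other groups stood below theirs each time. No test was made, because the 4 choices overlap.

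Peak calls were also read at the regions of the same genes that the rule had not chosen. For each library, the percentage of the 12366 other regions of genes with a member that held a peak was compared with that of the 58467 regions of genes without a member. The difference was 4.45, 4.87, 1.58 and 2.56 percentage points in RA replicates 1 to 4. It was -4.62, -3.59, -7.51 and -4.97 in DMSO, -5.20, -4.64, -5.84 and -5.44 in PB, and -0.21, -1.23, -0.51 and -2.97 in PB+RA. With all peaks counted, the RA libraries were the ones above 0 and did not overlap another group. With peaks of −log10 q of at least 5 alone, the RA mean was -3.19 ± 1.75 (SD, n = 4) and that of PB+RA -4.42 ± 1.17 (SD, n = 4), and 2 of 4 RA libraries lay above all PB+RA libraries.

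The mean was 3.36 ± 1.56 percentage points (SD, n = 4) in RA, -5.17 ± 1.67 (SD, n = 4) in DMSO, -5.28 ± 0.50 (SD, n = 4) in PB and -1.23 ± 1.23 (SD, n = 4) in PB+RA. RA exceeded DMSO by 8.54, PB by 8.64 and PB+RA by 4.59 percentage points. These values are a description, since the genes were chosen for peak calls with RA in the same libraries. With genes chosen without the replicate number read, the differences were 9.33, 10.1 and 5.84 percentage points, and the 4 such choices overlap. Within classes of GC content they were 7.36, 10.5 and 8.27. Both of these readings were added after the data were seen.

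**Figure D5:**
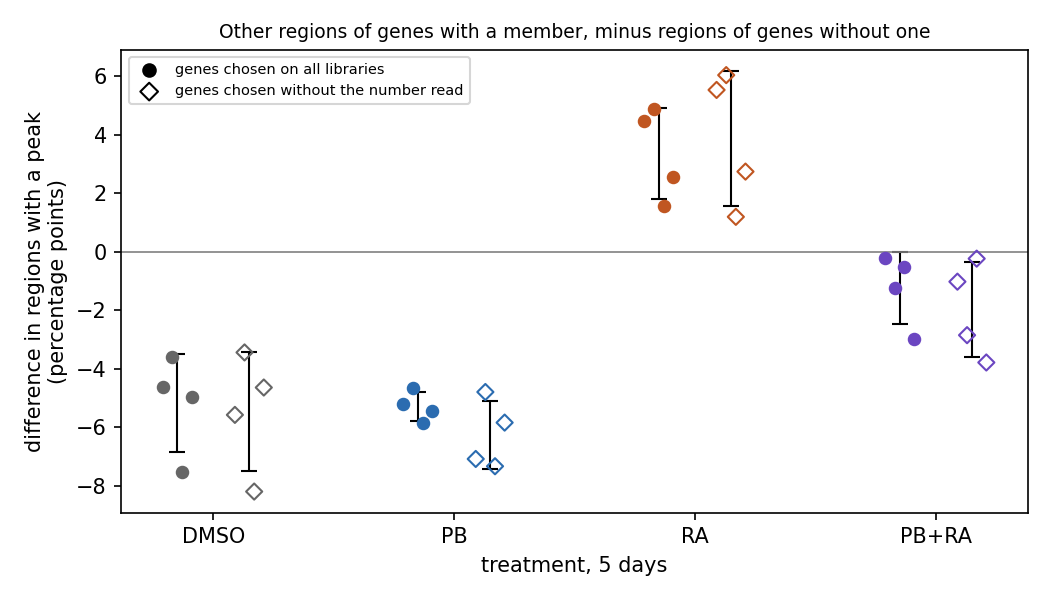
For each ChIP library, the percentage of other regions of genes with a member that hold a peak, minus that of regions of genes without a member (percentage points), by treatment, with bars that span the mean ± 1 SD (n = 4). Filled points use genes chosen on all libraries and open points use genes chosen without the replicate number read. The RA libraries lie above 0 and all others below it in both.

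In log2 concentration, the other regions of genes with a member had a median RA minus DMSO of 0.18, against -0.09 at regions of genes without a member. Their median RA minus PB+RA was 0.15 against 0.01, and their median PB+RA minus DMSO 0.05 against -0.12.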

How the data were processed

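H3K27ac ChIP-seq was analysed from 16 broad peak lists and 3 region tables. The submitters' notes list fastp 0.12.4, Bowtie2 2.4.4, MACS2 2.2.7.1, DiffBind 3.4, deepTools and the build hg19. The authors called peaks per library against input. Each peak has the authors' fold enrichment over input, a ratio, and the authors' −log10 q. Of each region, the tables give 1 deposited log2 concentration a group, the authors' mean over libraries, which is identical for DMSO in the 3 tables, so that the 4 groups share a scale. The authors' tables also hold log2 folds, p-values and FDR of each treatment over DMSO, which were not used. How concentrations were normalised is not given in the sources used here, and a global change in the mark may not show in them.

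Region starts were moved by 1 base to match the peaks, and coordinates are 1-based. Members and gene lists were chosen with earlier results of these data known. Regions were assigned to the nearest of 78714 GENCODE 44 coding start sites within 100 kb. GC content and motifs came from GRCh37, which holds 92092 of the regions. Regions named were the 12 members with the widest margin of RA over the other groups, 8 promoter-proximal members by RA minus DMSO, the 6 genes with most members (ties by alphabet), the top member of each list and all members of the RA and CRC lists, and the 3 lowest and 3 highest by PB+RA minus DMSO. Some of these are not reported here. Groups and replicate numbers came from sample titles. Same-numbered libraries of different groups had correlations of peak deviations from -0.019 to 0.105 (24 pairs), not all above 0.1, so that numbers were not taken to pair samples. Exact permutation tests of the peak calls at other regions of members' genes had been planned. They are not used as evidence, since the genes were chosen by the same libraries. The rule, the exact tests and the motif search were tested on simulated data (Python 3.11.15, pandas 2.3.3, scipy 1.17.1, pysam 0.24.0). Intervals on shares of regions cover counting error only.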

Additional observations from a re-analysis of the deposited data

Results flagged for a closer look

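Library measures were screened for a library far from its group of 4, in 24 such sets, and chance flags about 1 in 20. DMSO replicate 3, which also had the fewest peaks, had a median GC content of regions with a peak of 48.4%, while its group's other libraries lay between 49.4% and 49.5%. PB+RA replicate 2 had a median fold enrichment of 3.08 at members with a peak, while its group's other libraries lay between 2.84 and 2.88. Without DMSO replicate 3 the rule gave 2073 regions, and without PB+RA replicate 2 it gave 2151. With unchanged cutoffs, leaving out either of these could only raise the count.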

How the results depend on the processing

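The number of members depended on the peak lists. It was 1128 with as many peaks in each library as in the smallest list, 192 with peaks of −log10 q of at least 5, and 120 with 4 RA libraries and none elsewhere. Leaving out a library or a replicate number gave 708 (without RA replicate 2) to 2464, and without RA replicates 1, 3 and 4 it gave 850, 923 and 930. The cutoffs were unchanged, so without an RA library every other RA library needed a peak, and the count could only fall. Without a library of another group it could only rise. The direction of these changes was fixed in advance. Without replicate 2 of all groups it gave 1094. Of the 1128 and 192, 431 and 1 were members. With peaks over at least 50% of a region it was 2363, of which 429 (22.4% of members) were members, so the medians below are of partly different regions.

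Median RA minus DMSO was 0.92 with peaks over at least 50% of a region, 1.24 with the stricter q, 1.01 with equal lists and 1.65 with the strictest rule. RA minus PB was 0.93 centred on all regions, 0.98 centred by GC class, and 1.47, 1.20 and 1.78 with the last 3 choices. RA minus PB+RA was 0.89 by GC class, and 0.69, 0.74, 0.84 and 1.32 with the 4 choices of peaks. PB+RA minus DMSO, -0.0004 in the report, was 0.27, 0.54, 0.20 and 0.35. Leaving out libraries changed which regions were members but not the levels, which stayed the authors' means over all libraries. The medians were then 0.69 to 1.07, 1.04 to 1.28, 0.83 to 0.99 and -0.19 to 0.22, in the same order. Within 1 kb of a start site lay 5.58% of members and within 10 kb 26.2%. Median GC content was 46.7% in 1000 bases. A direct repeat was in 3.70% of members and 9.12% of all regions when whole regions were searched. Members were narrower (median 920 against 1727 bases), so less sequence was searched at each, and these shares are not like for like.

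With a replicate block the differences at other regions of genes with a member were the same 8.54, 8.64 and 4.59 percentage points. The planned exact permutation tests gave an adjusted p of 0.0286 each without the block and 0.125 with it, each the smallest they can give, and are no evidence, since the genes were chosen by the same libraries. Same-numbered libraries had a mean correlation of 0.054, and 7 of 16 libraries correlated best with their own number, so the numbers were not taken as a pairing. Libraries numbered 1 and 2, and likewise 3 and 4, deviated together (mean 0.058 within these sets and -0.058 between), which the tests ignore. With the stricter q, RA minus PB+RA was 1.23 (adjusted exact p = 0.257), and without a library it was 3.24 to 6.02, with an adjusted exact p of 0.0571 without PB+RA replicate 1, 3 or 4. The cause was not tested. Depth per library is unknown, which limits counts of weak peaks.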
